A study of Mus musculus with 2 samples.

Results

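The protein genes of the cytosolic and the mitochondrial ribosome were read in RNA-seq of adherent liver cells from CCl4-treated mice with and without Foxf1 in their αSMA-positive cells. Members were chosen by name alone: every protein-coding Rpl, Rps, Rplp, Rpsa, Mrpl or Mrps gene of the GENCODE M21 annotation that had an entry, which gave 158 of the 38320 gene entries. They comprised 81 genes of the cytosolic ribosome (49 of its large and 32 of its small subunit) and 77 of the mitochondrial ribosome (48 with Mrpl and 29 with Mrps names). Of these, 156 had a mean FPKM of at least 1 over both libraries and entered the counts below. Rpl10l, listed at 0 in both libraries, and Rpl3l, at 0.521 and 0.533, did not.

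The mice were adult males of strain C57/Bl6 given the hepatotoxin CCl4 for 5 weeks. Foxf1fl/fl animals, which carry loxP sites at Foxf1 and no Cre, were the controls. The αSMACreER;Foxf1−/− animals (αSMACreER;Foxf1 fl/fl in the labels) also carried a tamoxifen-inducible Cre under the αSMA promoter. The study reports that Foxf1 was effectively lost from αSMA-positive myofibroblasts, and in which cells recombination took place was not measured here. Per the study's methods tamoxifen was given during the injury, liver cells were plated for 2 hours, and samples of adherent cells were pooled for the libraries. There was 1 library for each genotype, with about 10 M single-end reads of 75 bases by the labels, so no difference below has a replicate check and none was tested. Values are the deposited FPKM, a level per kilobase of transcript. A difference is the log2(FPKM + 0.1) in αSMACreER;Foxf1−/− less that in Foxf1fl/fl, taken after the former values had been divided by 1.02, the median ratio of the libraries. Where genes are counted as lower or higher without further words, a change of at least 1.5-fold is meant.

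The cytosolic ribosome translates the mRNAs of the nuclear genome, and its proteins are made in near-equal numbers from some of the most abundant mRNAs of any cell. The mitochondrial ribosome translates the few mRNAs of the mitochondrial genome, and all of its proteins are encoded in the nucleus and imported. Many mRNAs for cytosolic ribosomal proteins begin with a run of pyrimidines at their cap, the 5′ terminal oligopyrimidine (TOP) tract, through which their translation follows growth signals relayed by the kinase mTORC1.

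This start signature was looked for in the RefSeq promoter windows of GRCm38.p6, which matched 59 cytosolic and 68 mitochondrial members. A window was counted when a run of at least 8 pyrimidines that began with C started within 10 bases of the annotated start. Such a run stood in 21 of 59 cytosolic genes (35.6%), in 5 of 68 mitochondrial genes (7.35%), in 9.38% of the genes that passed the FPKM filter and in 8.44% of all 27025 genes with a window. Starts are annotated and were not measured here, so a run can lie next to the base at which transcription begins. The following windows of 30 bases, from 10 before the annotated start to 20 after it, show cytosolic genes with a run, in capitals, and then a cytosolic and 4 mitochondrial genes without one.
Rpl13a, chr7:45128726-45128755, minus strand: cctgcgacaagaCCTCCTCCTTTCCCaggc
Rps27, chr3:90213629-90213658, minus strand: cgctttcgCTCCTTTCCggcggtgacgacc
Rps12, chr10:23787190-23787219, minus strand: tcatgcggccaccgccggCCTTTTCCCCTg
Rplp2, chr7:141447641-141447670, plus strand: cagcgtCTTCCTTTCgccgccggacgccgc
Rpl18, chr7:45718061-45718090, plus strand: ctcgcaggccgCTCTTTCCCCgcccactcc
Rpl4, chr9:64173377-64173406, plus strand: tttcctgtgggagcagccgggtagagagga
Mrpl52, chr14:54426899-54426928, plus strand: gggccacgcccacttccggttcccttgctc
Mrps21, chr3:95871495-95871524, minus strand: ctcccgtcgcgggactccgtagcttccgct
Mrpl53, chr6:83109098-83109127, plus strand: gggtggaggtaaccatggcggcggctttgg
Mrps2, chr2:28468056-28468085, plus strand: cgggcaggaagagtctctgcaggatctctg

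A second feature was shared by both ribosomes. The core letters of an ETS-family site, CGGAAG on either strand, lay between 250 bases before and 50 after the start of 41 of 59 cytosolic genes (69.5%) and 38 of 68 mitochondrial genes (55.9%). Among genes that passed the FPKM filter the share was 34.3%, and among all genes with a window 18.8%. A match describes letters in a window and is not evidence that a factor binds there.

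Over the 12861 genes that passed the filter, the median difference between the libraries was 0.01, 13.2% were at least 1.5-fold lower, 12.9% at least 1.5-fold higher and 49.6% lower by any amount. Scaling to an equal FPKM sum in place of the median ratio moved that median to 0.21 and the split from 1697 lower and 1662 higher to 1125 and 2815, so each direction below is relative to the median of all genes. The labelled stromal cells were present beside others: the collagen gene Col1a1 had 70.2 and 103 and Col3a1 115 and 164, while Des, at 1.703 and 3.29, Acta2, the αSMA gene, at 7.77 and 5.65 (−0.48), and Lrat, at 0.0778 and 0.111, were low. The macrophage gene C1qa had 1546 and 1142 and the hepatocyte gene Alb 2292 and 912. All 9 hepatocyte markers were lower in αSMACreER;Foxf1−/−, with differences of −1.92 to −1.35, and they summed to 0.443% of all FPKM in Foxf1fl/fl cells but 0.185% in αSMACreER;Foxf1−/−. The 9 macrophage markers, at 1.09% and 0.993%, had a median difference of −0.34, the 6 of 8 stellate and myofibroblast markers past the filter 0.46, and the endothelial, lymphocyte and cholangiocyte markers 0.20, 0.27 and 0.00. Markers of 1 cell type did not all move together. Macrophage markers ran from −0.59 to 0.05, stellate and myofibroblast markers from −0.48 to 0.89 and endothelial markers from 0.02 to 0.40. Lymphocyte markers ran from −0.66 to 0.49 and cholangiocyte markers from −0.58 to 0.50. The part of these cell types in the values of the ribosomal protein genes was not tested, and in such pooled cells a different mix of cell types and a different RNA content per cell cannot be told apart.

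The cytosolic ribosomal protein mRNAs were lower in αSMACreER;Foxf1−/− cells as a body. All 79 members past the filter lay below 0 (74 of 79 after scaling to an equal FPKM sum), with a median difference of −0.41, or 75.3% of the Foxf1fl/fl level, against 0.01 over all genes. The median FPKM of these genes was 949 in the control library and 758 in the other. Most of these differences were smaller than 1.5-fold: 11 of 79 (13.9%) were at least 1.5-fold lower, close to the 13.2% of all genes, and none was at least 1.5-fold higher. After scaling to an equal FPKM sum the median was −0.21 and 1 of 79 was at least 1.5-fold lower, beside 1125 of all 12861 genes. The genes also lay close together. Differences ran from −0.84 to −0.08 with an SD of 0.15 across genes, and 66 of 79 lay within 0.2 of their own median, whereas 32.3% of all genes lay that near to theirs.

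**Figure D1:**
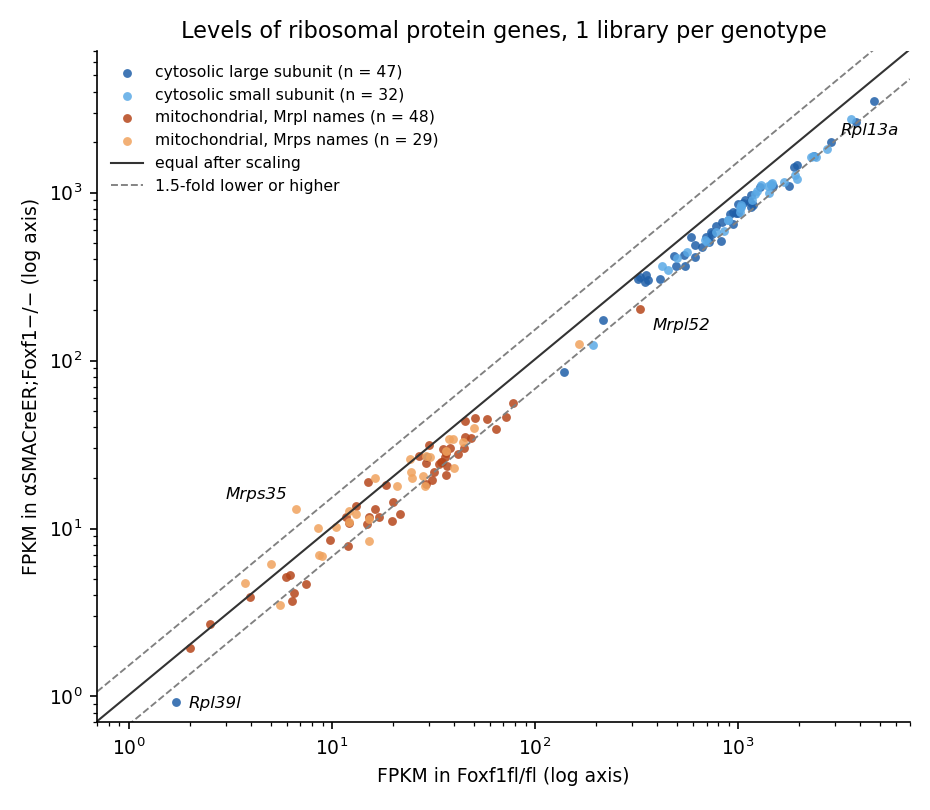
FPKM of the 156 ribosomal protein genes past the filter, with Foxf1fl/fl on the horizontal and αSMACreER;Foxf1−/− on the vertical log axis, 1 point per gene, the solid line marking equal levels after median-ratio scaling and the dashed lines 1.5-fold. The 79 cytosolic genes form a narrow band below the solid line, while the 77 mitochondrial genes scatter more widely at lower levels and Mrps35 alone lies above the upper dashed line.

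The order of levels within the cytosolic ribosome was nearly the same in both libraries (Spearman's rho 0.99 over 79 genes, given as a description, since the 2 libraries share gene lengths and mapping). Rpl13a (ENSMUSG00000074129, chromosome 7 from 45125558 to 45128761 of GRCm38), a large-subunit protein that also takes part in silencing of inflammatory mRNAs in macrophages, had the highest level, 4669.5 in Foxf1fl/fl and 3491 in αSMACreER;Foxf1−/−. Its difference was −0.44, with a rough 95% counting interval of −0.47 to −0.42 that holds sampling of reads and no variation between animals. The stalk that recruits translation factors to the large subunit is built of Rplp0, Rplp1 and Rplp2. Rplp1 had 3795 and 2623 (−0.56) and Rplp2 2860.0 and 1999 (−0.54). Rplp0, which anchors the other two, had 1278 and 1078 (−0.27), so the acidic pair stood further below the Foxf1fl/fl level than their anchor.

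At the lower end of the large subunit, Rpl38 (chromosome 11 from 114668524 to 114672331), a protein needed for normal patterning of the mouse skeleton, had 1775 in Foxf1fl/fl and 1090.4 in αSMACreER;Foxf1−/−, a difference of −0.73. Rpl27 had 827 and 513 (−0.71), and Rpl39, which lines the exit tunnel of the growing peptide, 550.5 and 367 (−0.61). These were among the 6 of 47 large-subunit genes (12.8%) at least 1.5-fold lower, beside 13.2% of all genes. At the other end stood Rpl5 (chromosome 5 from 107900502 to 107909005), which binds the smallest rRNA of the subunit and, when free, the p53 regulator Mdm2. It had 329 and 317, a difference of −0.08 (counting interval −0.14 to −0.02). Rpl10a, the protein of the stalk that moves spent tRNA out of the ribosome, had 323 and 307 (−0.10, interval −0.19 to −0.01). Rpl5 and Rpl10a were the least lowered large-subunit genes and lay above 0 after scaling to an equal FPKM sum, as did Rpl6, Rpl31 and Rpl7l1, whose differences were between −0.15 and −0.13 on the main scale.

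The 32 small-subunit genes had a median of −0.41, as did the large subunit, and a range of −0.72 to −0.25. Rps27, a zinc-binding protein, had the highest level, 3581 and 2758 (−0.40). Rps29, another zinc-binding protein, had 2750 and 1827 (−0.62), and Rps15a 2415 and 1623 (−0.60). Rps9, a protein at the mRNA entry site, had 1904 and 1276 (−0.60). Rps23, which sits at the decoding centre and bears on its accuracy, had 424 and 364 (−0.25), the small end of the differences in this subunit. In all, 5 of 32 (15.6%) were at least 1.5-fold lower, beside 13.2% of all genes. Rps6, the target of the S6 kinases, had 502 and 409 (−0.32), and Rpsa, also known as the laminin receptor, 451 and 348 (−0.40).

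**Figure D2:**
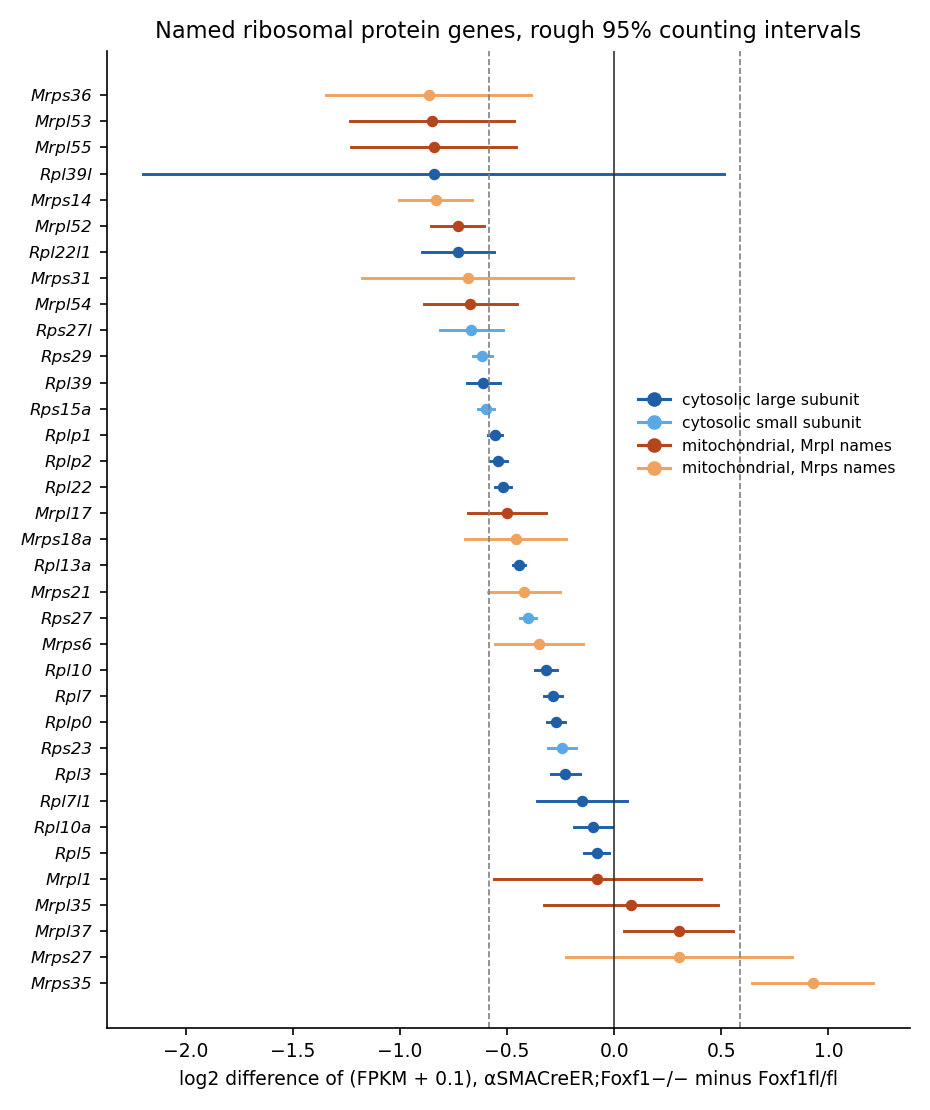
Difference between the libraries for 35 named ribosomal protein genes past the filter, on the log2 scale of FPKM + 0.1 after median-ratio scaling, with rough 95% counting intervals as bars and 1.5-fold as dashed lines. The cytosolic genes with an FPKM above 300 have narrow intervals between −0.69 and −0.01, and Rpl39l, with about 11.6 and 6.28 reads, has the widest.

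Proteins present in the ribosomes of all domains of life were set beside those found only in eukaryotes. The 33 universal members had a median of −0.39 and the 42 eukaryote-only members −0.42, a gap of 0.02. Proteins of the cytosolic ribosome that carry other names fell outside the name rule. Fau, whose product is cut into a small-subunit protein and a ubiquitin-like protein, had 1146 and 764 (−0.61). The scaffold protein Rack1 had 1248 and 1074 (−0.24).

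Among the members, 6 were listed as paralogues of another ribosomal protein. Rpl22l1 (chromosome 3 from 28805436 to 28807424) had 139 in Foxf1fl/fl and 85.0 in αSMACreER;Foxf1−/−, a difference of −0.73 (counting interval −0.90 to −0.56), and this level equalled 19.3% and 16.7% of that of Rpl22. Rps27l, a p53 target (chromosome 9 from 66946086 to 66949516), had 192 and 123 (−0.67), which was 5.36% and 4.46% of Rps27. Rpl7l1 had 29.3 and 26.8 (−0.15). Rpl39l, known from testis, was at 1.71 and 0.926, under 1% of Rpl39 in each library, and with about 11.6 and 6.28 reads its interval ran from −2.20 to 0.51, so no difference was detectable at this depth. The muscle gene Rpl3l and the testis gene Rpl10l were at or near 0 in both. Without the paralogues, the 75 remaining cytosolic genes had a median of −0.41 and all 75 lay below 0 under median-ratio scaling. Of these 75, 8 (10.7%) were at least 1.5-fold lower, beside 13.2% of all genes.

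How far a short read can tell such copies apart is shown by their coding sequences in GENCODE M21. Rpl39 and Rpl39l each have 156 bases of coding sequence and differ at 23 of them, here in capitals in Rpl39l, so that they are 85.3% identical.
Rpl39: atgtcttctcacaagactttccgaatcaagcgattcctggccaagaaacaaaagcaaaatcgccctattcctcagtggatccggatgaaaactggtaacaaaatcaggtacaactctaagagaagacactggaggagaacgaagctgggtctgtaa
Rpl39l: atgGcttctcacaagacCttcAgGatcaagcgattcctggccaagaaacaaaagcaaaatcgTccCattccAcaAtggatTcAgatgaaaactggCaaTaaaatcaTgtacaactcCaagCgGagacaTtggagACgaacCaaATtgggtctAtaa
Rps27 and Rps27l differ at 61 of 255 bases (76.1% identical), in capitals in Rps27l.
Rps27: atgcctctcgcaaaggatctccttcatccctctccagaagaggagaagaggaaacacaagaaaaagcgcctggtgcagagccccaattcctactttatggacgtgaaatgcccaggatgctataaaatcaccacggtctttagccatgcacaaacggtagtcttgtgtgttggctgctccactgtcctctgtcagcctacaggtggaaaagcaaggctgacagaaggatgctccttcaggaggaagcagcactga
Rps27l: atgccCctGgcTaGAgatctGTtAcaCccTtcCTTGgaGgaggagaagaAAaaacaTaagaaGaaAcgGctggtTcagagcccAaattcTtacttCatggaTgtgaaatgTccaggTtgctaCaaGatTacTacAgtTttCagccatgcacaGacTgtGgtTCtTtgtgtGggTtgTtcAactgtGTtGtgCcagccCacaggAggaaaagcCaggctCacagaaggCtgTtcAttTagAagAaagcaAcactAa
The retrocopy Rps27rt on chromosome 9 (114982366 to 114982739), outside the name rule and named after its values were seen, has a coding sequence identical to that of Rps27, with 0 of 255 bases different. Its listed level was 1101 and 835 (−0.42), 30.7% and 30.3% of Rps27, and 90.3% of its words of 75 bases, the read length, also occurred in Rps27 or another gene. Levels of Rps27 and Rps27rt are therefore uncertain relative to each other. Rpl36al, likewise outside the rule and named after its values were seen, had 222 and 146 (−0.63) beside 721 and 522 for Rpl36a (−0.49).

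More sequence was shared with other genes in the cytosolic than in the mitochondrial ribosome. For the median cytosolic gene, 30.7% of the 75-base words in its transcripts occurred in the transcripts of another gene, and 76 of 81 shared words with an annotated pseudogene. For the median mitochondrial gene the share was 0.221%, and 36 of 77 shared none. Of the cytosolic genes past the filter, the 14 that shared under 10% of their words had a median difference of −0.53. The paralogues Rpl39l, Rps27l and Rpl7l1 were among these 14. The 24 cytosolic genes that shared 50% or more had −0.36. In the mitochondrial ribosome the order was the reverse, with −0.39 for 56 genes under 10% and −0.54 for 4 genes at 50% or more. Rpl5 shared 84.1% of its words, with 6 pseudogenes among its partners. All of the words of Mrpl53 also occurred in the overlapping gene Gm42688, so reads of the 2 genes cannot be told apart by sequence. Of 230 entries named after a ribosomal protein as its pseudogene, 131 were listed at 0 in both libraries and 14 passed the filter. The FPKM of the 230 entries summed to 148 in Foxf1fl/fl and 169 in αSMACreER;Foxf1−/−, or 0.160% and 0.246% of the summed member level. Single entries weighed on these sums: Rpl39-ps had 21.2 and 56.1, and Rpl19-ps11 17.7 and 7.42. Partner pseudogenes under other names, such as Gm10288 for Rpl11 and Gm8226 for Rpl7a, were not counted, so the sums do not give the whole pseudogene level.

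The mitochondrial ribosomal protein genes were lower in αSMACreER;Foxf1−/− by a similar median but far less evenly. Their median FPKM was 24.5 in the control library and 19.5 in the other, and the median difference was −0.37, or 77.1% of the Foxf1fl/fl level. Of 77 genes, 66 lay below 0 (52 after scaling to an equal FPKM sum), 19 (24.7%) were at least 1.5-fold lower, beside 13.2% of all genes, and 1 was at least 1.5-fold higher. After scaling to an equal FPKM sum the median was −0.17, with 6 genes lower and 1 higher, beside 1125 and 2815 of all 12861 genes. The SD across genes was 0.33, and 35 of 77 lay within 0.2 of the median. Counting error was also larger here: the median gene had about 258 and 222 reads and an interval half-width of 0.26, against about 6821 and 5297 reads and 0.05 in the cytosolic ribosome.

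Genes with Mrpl names, which mark the large subunit, had a lower median than those with Mrps names, most of them of the small subunit. The 48 Mrpl genes had a median of −0.48, with 15 (31.25%) at least 1.5-fold lower and none higher. The 29 Mrps genes had a median of −0.24, with 4 (13.8%) lower and 1 higher. Over all genes 13.2% were lower and 12.9% higher. Mrpl52 (chromosome 14 from 54426909 to 54429756), a protein without a bacterial counterpart, had by far the highest level of the mitochondrial ribosome, 329 in Foxf1fl/fl and 202 in αSMACreER;Foxf1−/−, which is within the range of cytosolic members. Its difference was −0.73 (counting interval −0.85 to −0.61). Mrpl17 had 77.7 and 55.8 (−0.50) and Mrpl54 72.4 and 46.2 (−0.67). The lowest differences of the subunit were those of Mrpl53, at 21.7 and 12.2 (−0.85), and Mrpl55, at 19.8 and 11.2 (−0.84). Mrpl37 went the other way, with 15.0 and 18.9 (0.30, interval 0.05 to 0.55). Mrpl1, at 2.01 and 1.93, and Mrpl35, at 2.50 and 2.69, were the lowest in level, and their intervals included 0. The stalk proteins of this subunit differed from each other: Mrpl12 had 36.3 and 28.1 (−0.40), and its anchor Mrpl10 13.2 and 13.6 (0.02).

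Among the Mrps genes, Mrps21 (chromosome 3 from 95862634 to 95871519) had the highest level, 165 and 125 (−0.42, interval −0.59 to −0.26), followed by Mrps6 with 50.1 and 39.9 (−0.35). Mrps14 had 40.0 and 22.8 (−0.83), and Mrps31 5.56 and 3.48 (−0.69). Mrps36 had the lowest difference of all members, −0.87 from 15.3 and 8.48, and its product is now placed in the 2-oxoglutarate dehydrogenase complex of the citric acid cycle rather than in the ribosome. Mrps35 (chromosome 6 from 147042764 to 147073991) was the only member at least 1.5-fold higher, beside 12.9% of all genes: it had 6.69 in Foxf1fl/fl and 13.04 in αSMACreER;Foxf1−/−, a difference of 0.93 with an interval of 0.64 to 1.21. None of its 75-base words occurred in another gene. Mrps27, an RNA-binding protein, had 3.73 and 4.70 (0.30, interval −0.23 to 0.83). Mrps12, the decoding-centre protein that corresponds to the cytosolic Rps23, had 24.3 and 26.0 (0.07). Mrps18a and Mrps30 are known, despite their names, to sit in the large subunit, and they had differences of −0.46 and 0.21.

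Proteins of the mitochondrial ribosome under other names had differences of −0.87 (Chchd1, 42.3 and 23.5), −0.53 (Gadd45gip1, 5.33 and 3.72), −0.21 (Aurkaip1, 63.8 and 56.0), −0.13 (Ptcd3, 5.64 and 5.24) and 0.02 (Dap3, 40.7 and 41.9).

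The proportion between the ribosomes was computed in each library. The median cytosolic FPKM was 38.7 times the mitochondrial one in Foxf1fl/fl and 38.8 times in αSMACreER;Foxf1−/−, and the ratio of the summed levels 37.4 and 36.8. Cytosolic members made up 11.9% of all FPKM in Foxf1fl/fl and 10.0% in αSMACreER;Foxf1−/−, and mitochondrial members 0.318% and 0.273%. The medians of the log2 differences were 0.03 apart.

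**Figure D3:**
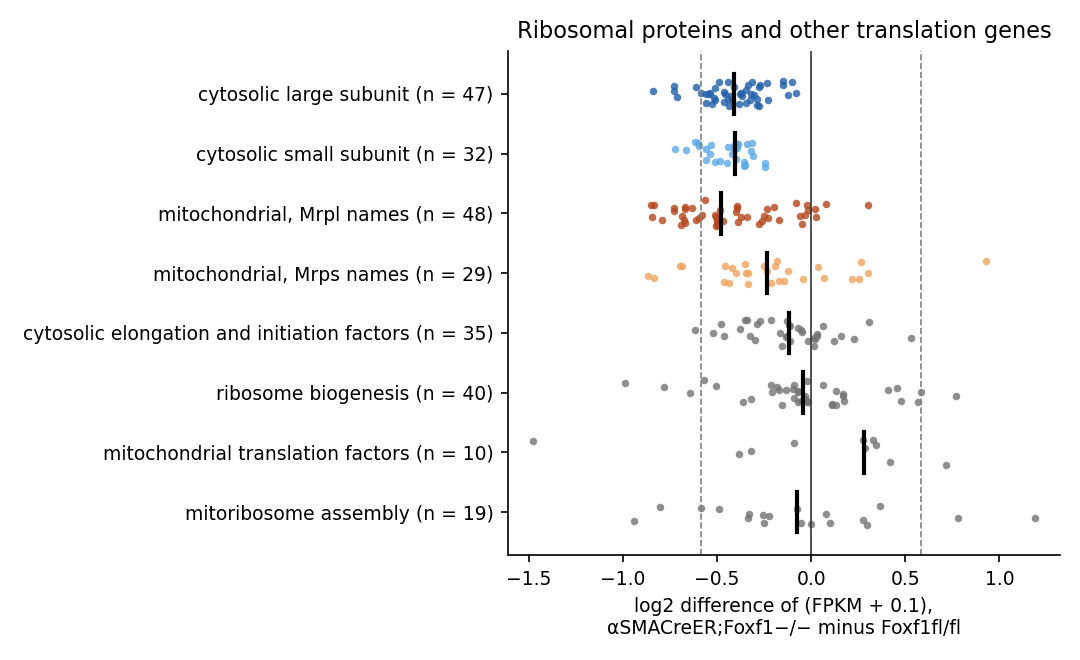
Log2 difference of FPKM + 0.1, αSMACreER;Foxf1−/− minus Foxf1fl/fl after median-ratio scaling, for each member by name and for related lists, with medians as bars and 1.5-fold as dashed lines. The 79 cytosolic genes gather between −0.84 and −0.08, the mitochondrial genes spread from −0.87 to 0.93, and the other translation genes centre nearer to 0 or, for mitochondrial translation factors, above it.

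Genes that work with the ribosome, taken from lists of known function, were nearer to the median of all genes. Among 35 cytosolic elongation and initiation factors the median was −0.12. Of these, 1 was at least 1.5-fold lower and none higher, beside 13.2% and 12.9% of all genes. The elongation factors Eef1a1, at 5521 and 5191 (−0.11), and Eef2, at 812 and 845 (0.03), were as abundant as ribosomal proteins, and Eef1b2, the exchange factor, had 641 and 473 (−0.46). Among 40 genes of ribosome biogenesis, which process rRNA and assemble subunits, the median was −0.05, with 3 lower and 1 higher; nucleophosmin (Npm1) had 303 and 288 (−0.10) and fibrillarin (Fbl) 66.3 and 47.4 (−0.51). The 10 mitochondrial translation factors had a median of 0.28, with Mtrf1l lower, at 3.66 and 1.27 (−1.48), and Mtfmt higher, at 3.14 and 5.30 (0.71). The 19 assembly factors of the mitochondrial ribosome had −0.08, with 3 lower and 2 higher. These genes have longer transcripts than the cytosolic members, and measured from genes of like length, as described next, the medians of the 4 lists were −0.07, −0.07, 0.14 and −0.10, beside −0.17 for the cytosolic and −0.23 for the mitochondrial ribosome.

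Ribosomal protein transcripts are short, and short transcripts of other genes were also, by their median, lower in αSMACreER;Foxf1−/−. When 11428 other protein-coding genes were ordered into 20 groups by transcript length, the median difference ran from −0.27 in the shortest group (102 to 639.5 bases) to 0.46 in the longest. In the 5 shortest groups together, up to 1208.5 bases, 20.2% of 2857 other genes were at least 1.5-fold lower, 6.79% were higher and 67.6% were lower by any amount. Of the members, 71 of 79 cytosolic and 42 of 77 mitochondrial genes fell in these 5 groups, and 71 of 71 and 41 of 42 of them were lower by any amount. At least 1.5-fold lower were 11 of those 71 and 12 of those 42.

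Measured from the median of other genes of like length, the differences were smaller and mostly still negative. In the shortest group, 34 cytosolic genes had a median of −0.50 and 8 mitochondrial genes −0.54, against −0.27 for 567 other genes. In the second group the values were −0.41 for 12 cytosolic, −0.49 for 15 mitochondrial and −0.19 for 575 other genes. Over all lengths, the median difference from genes of like length was −0.17 for the cytosolic ribosome, with 73 of 79 below their group, and −0.23 for the mitochondrial ribosome, with 58 of 77 below. By name it was −0.17 for Rpl, −0.19 for Rps, −0.31 for Mrpl and −0.14 for Mrps genes. This measure depended on how length was taken: for the cytosolic ribosome it was −0.04 with the longest transcript of a gene, −0.23 with coding length and −0.07 against other genes whose mean FPKM reached 50, and 46, 76 and 53 of 79 genes lay below their group. For the mitochondrial ribosome the values were −0.15, −0.18 and −0.14, with 55, 57 and 54 of 77 below.

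**Figure D4:**
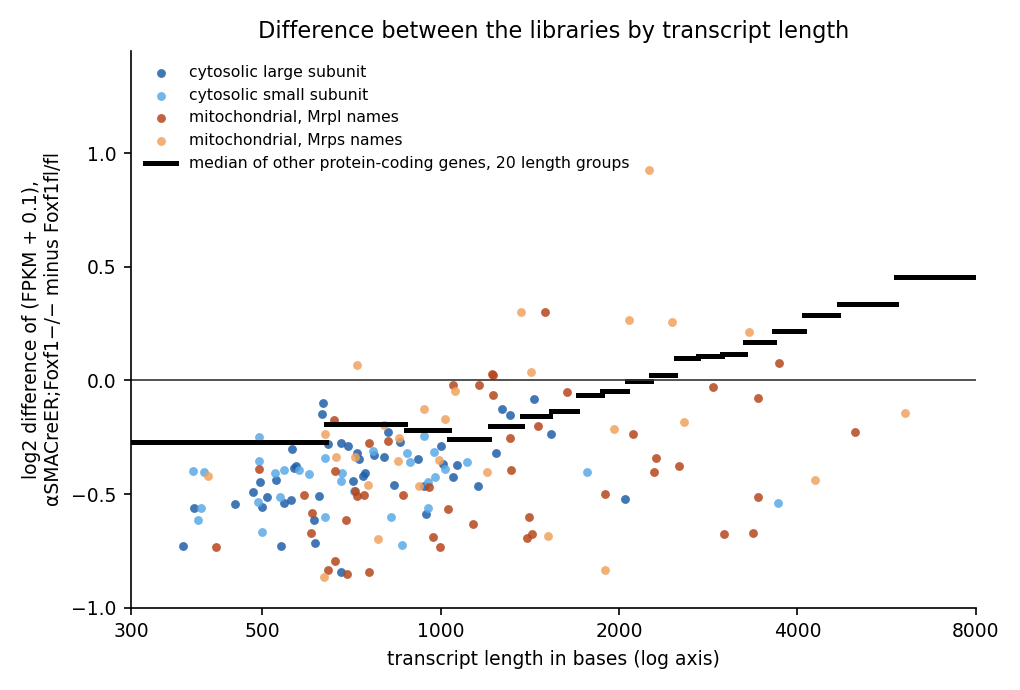
Log2 difference of FPKM + 0.1 after median-ratio scaling against transcript length in bases (log axis) for the 156 ribosomal protein genes past the filter, with black bars for the median of other protein-coding genes in 20 length groups. The bars climb from −0.27 to 0.46, and most members lie below the bar of their own length.

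Other short, highly expressed genes gave a closer yardstick. Among 207 genes of the 5 shortest groups whose mean FPKM reached 200, the median was −0.34, and 175 of 207 were lower by any amount, with 28 at least 1.5-fold lower and 5 higher. They include ferritin (Fth1, 13908 and 10390, −0.45; Ftl1, 7262 and 5225, −0.50) and thymosin (Tmsb4x, 6841 and 4746, −0.55), whose differences lay within the range of the cytosolic ribosomal proteins. Some mRNAs that the mitochondrial ribosome itself translates belonged to the same short and abundant class and had differences above 0: mt-Co2 had 12230 and 13237 (0.09), mt-Atp6 5237 and 8546 (0.68) and mt-Cytb 3578 and 6751 (0.89).

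Within the cytosolic ribosome, Spearman's rho of the difference was 0.56 with coding length, 0.36 with transcript length and −0.29 with mean FPKM over 79 genes. Within the mitochondrial ribosome the same values were 0.32, 0.37 and −0.26 over 77 genes. These are descriptions across genes of the same 2 libraries. The 8 cytosolic genes with longer transcripts, which include Rpl5, Rpl22 and Rps20, had a median of −0.28, and the 35 longer mitochondrial genes −0.21.

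The start signature and the ETS letters were set beside the differences. The 21 cytosolic genes with a pyrimidine run at the start, such as Rpl13a and Rplp2 above, had a median of −0.47 and the 38 without −0.39. They were also shorter, with a median transcript of 612 against 741 bases, and measured from genes of like length they had −0.24 and −0.15. The 5 mitochondrial genes with a run had −0.34 and the 63 without −0.35. Among other protein-coding genes, 832 with a run had a median of 0.04 and 8245 without one 0.01. Cytosolic genes with the ETS letters had −0.41 and those without −0.39, and mitochondrial genes −0.36 and −0.30.

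Several cytosolic ribosomal protein genes carry small nucleolar RNA (snoRNA) genes, guides of rRNA modification, in their introns. The 29 genes with an annotated snoRNA inside had a median of −0.39, with 2 at least 1.5-fold lower. The 50 without had −0.41, with 9 lower, among them the paralogues Rpl22l1, Rpl39l and Rps27l. Over all genes 13.2% were at least 1.5-fold lower. No mitochondrial member held one.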

How the data were processed

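The authors pooled samples within each genotype, made TruSeq libraries, aligned reads with TopHat (mm10 per the labels) and deposited Cufflinks FPKM per Ensembl gene, a fragment number corrected for transcript length and for library size. FPKM are not counts, and actual depth was not given in the sources used here. With 1 library per genotype no test, block or left-out replicate was possible. The members and lists were chosen with earlier results of these data known.

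Symbols, coordinates and lengths were taken from GENCODE M21 (GRCm38), in which 36490 of 38320 entries had a symbol, and promoter windows from RefSeq (GRCm38.p6). Foxf1 and the members Rpl13, Rpl24 and Mrpl33 were not analysed here, and a few genes the rule named are not reported here. Entries with a status other than OK (3, none a member) were left out. αSMACreER;Foxf1−/− values were divided by the median ratio of the genes that reached an FPKM of 1 in each library, 0.1 was added before log2, and genes whose mean FPKM reached 1 were counted. Transcript length was the median over a gene's protein-coding transcripts. Counting intervals (95%, Poisson) used 10 M nominal reads and are rough. Named genes were, among Rpl, Rps, Mrpl and Mrps genes each, the 3 highest and 2 lowest in level and the 2 largest differences in each direction, with the stalk, paralogues and their parents and proteins under other names. Rpl4, Rpl6, Rpl18, Rpl27, Rpl31, Rpl38, Rps6, Rps9, Rps12, Rps20, Rpsa, Mrpl10, Mrpl12, Mrps2, Mrps12, Mrps30 and the related genes were named after their values were seen. Scripts ran in Python 3.11.15 (pandas 2.3.3, numpy 2.4.6, matplotlib 3.10.9, scipy 1.17.1), and the steps were tested on simulated data.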

Additional observations from a re-analysis of the deposited data

How the results depend on the processing

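Settings varied were the scaling, pseudocount, fold, filter, treatment of symbols with several entries and the definition of like length. An equal FPKM sum moved the cytosolic median to −0.21 and the mitochondrial median to −0.17. With that scaling 1 cytosolic and 6 mitochondrial genes were at least 1.5-fold lower, beside 1125 of all 12861 genes. It also put Mrpl1 (0.11), Ptcd3 (0.069), Rpl10a (0.10), Rpl5 (0.12) and Rpl7l1 (0.051) above 0. At a 2-fold threshold, 0 cytosolic genes were lower and, of mitochondrial genes, 0 were lower and 0 higher. Of all 12861 genes, 800 were lower and 581 higher at that threshold. The cytosolic difference from genes of like length was −0.41 without a filter, when the comparison genes include many near 0, −0.045 with the longest transcript, −0.23 with coding length and −0.072 against genes whose mean FPKM reached 50. The cytosolic minus mitochondrial difference of that measure, 0.07, turned to −0.011 without a filter and to −0.053 with coding length. Under the other settings run, the directions of both medians and of all 44 named genes held. No paired analysis was possible because there was only 1 library of each kind. The comparison with short, highly expressed genes was chosen after seeing the data. Depth is nominal, so intervals for genes with few reads, such as Rpl39l, are approximate. The cause of the changes was not tested.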
